A study of Mus musculus with 5 samples.

Results

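The nuclear genes for the subunits of oxidative phosphorylation were followed across 5 single-cell libraries of mouse intestinal organoids. The genes were chosen by name: every row of the count tables that starts with Nduf, Sdha to Sdhd, Uqcr, Cox4 to Cox8 or Atp5, or is Cycs or Cyc1, with at least 20 unique molecular identifiers (UMIs, each standing for 1 captured transcript) over all libraries. Of 94 such rows, 89 passed, among 12675 genes with the same minimum. The 5 that did not pass had 1 to 11 UMIs in all: Cox4i2 1, Cox6a2 11, Cox7b2 2, Ndufa4l2 1 and Ndufs5 1. The lowest that passed were Cox6b2 with 113 and Cox7a1 with 141. By role, 35 of the 89 genes belong to complex I, 4 to complex II, 9 to complex III, 1 is cytochrome c, 13 belong to complex IV and 15 to complex V. A further 12 are assembly or associated factors that share the names, such as Ndufaf4.

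Organoids are small balls of epithelium grown from gut cells in a gel. Cells were sorted singly into a 384-well plate for each library. The Cys and Bud libraries came from small intestinal organoids with the genotype Lkb1 -/-, and the labels do not say what Cys and Bud stand for. The het library had the genotype Lkb1 +/-, the fetal library was made from WT organoids of fetal intestine, and the WT library from WT small intestinal organoids. Lkb1 (gene symbol Stk11) encodes a kinase that switches on AMPK, the cell's main sensor of low energy. The growth protocol given for all 5 libraries is a medium with Egf, R-spondin1 and Noggin. The edited part of Lkb1, the number of clones or animals behind a library and the passage are not given in the labels.

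Each group had 1 library, so every comparison below is between libraries and not between conditions, without a test. Levels are given as CPM, the UMIs of a gene per 1000000 UMIs of its library, summed over the kept wells. Brackets hold 95% intervals, which cover counting error only. A gene is called lower or higher where its ratio passes 1.5-fold and the interval of the ratio leaves out 1. For log2 ratios 10 CPM was first added to each level, so the change of low genes is understated.

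Oxidative phosphorylation is the last stage of respiration in mitochondria. Complexes I and II take electrons from NADH and succinate, complex III passes them to cytochrome c, and complex IV hands them to oxygen. Complexes I, III and IV pump protons, and complex V, the ATP synthase, uses the proton gradient to make ATP. Most subunits are encoded in the nucleus and a few in mitochondrial DNA; genes of the mitochondrial chromosome were not analysed here, so only the nuclear ones are described.

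The promoters of 76 of the 89 genes were found in RefSeq (GRCm38.p6, 250 bases before to 50 after the start of the gene). Many genes of this group are known targets of the transcription factors NRF1, GABP (of the ETS family) and YY1, so the letters GCGCATGCG (NRF1), CCGGAAG (ETS) and AAGATGGCG (YY1) were looked for on either strand. The ETS letters can overlap the first letters of the YY1 string. The NRF1 letters stood in 11 of the 76 genes' promoters (14.5%) and in 1.95% of 27025 genes in the table. The ETS letters stood in 19 (25%) and in 9.93% of all genes, and the YY1 letters in 8 (10.5%) and in 1.64%. A match describes the letters and is not a site. The promoters of 5 genes that the results return to are shown with matched letters in capitals. Sdhb, Uqcrh and Cycs were lower in the fetal library, Cox6b2 was found mainly there, and Ndufs4 was most abundant in Cys. Sdhb lies at chr4:140961021-140961320 on the plus strand and Uqcrh at chr4:116075021-116075320 on the minus strand. Cycs lies at chr6:50566520-50566819, Cox6b2 at chr7:4753045-4753344 and Ndufs4 at chr13:114388045-114388344, all on the minus strand.
Sdhb: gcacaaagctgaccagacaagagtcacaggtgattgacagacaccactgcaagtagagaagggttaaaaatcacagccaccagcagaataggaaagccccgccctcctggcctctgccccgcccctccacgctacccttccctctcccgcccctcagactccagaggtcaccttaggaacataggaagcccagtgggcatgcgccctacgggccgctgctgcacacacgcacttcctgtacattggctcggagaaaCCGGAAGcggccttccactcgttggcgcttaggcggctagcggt
Uqcrh: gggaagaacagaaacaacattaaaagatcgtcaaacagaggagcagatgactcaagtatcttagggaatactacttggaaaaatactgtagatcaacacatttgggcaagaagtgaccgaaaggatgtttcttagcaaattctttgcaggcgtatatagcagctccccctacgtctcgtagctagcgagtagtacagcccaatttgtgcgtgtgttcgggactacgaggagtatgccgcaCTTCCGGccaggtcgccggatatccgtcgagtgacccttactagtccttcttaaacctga
Cycs: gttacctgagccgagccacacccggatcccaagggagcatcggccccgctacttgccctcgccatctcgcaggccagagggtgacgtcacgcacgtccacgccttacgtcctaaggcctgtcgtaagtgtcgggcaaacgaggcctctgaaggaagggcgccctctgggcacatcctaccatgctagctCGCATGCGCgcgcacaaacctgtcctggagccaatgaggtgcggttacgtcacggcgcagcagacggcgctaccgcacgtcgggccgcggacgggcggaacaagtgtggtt
Cox6b2: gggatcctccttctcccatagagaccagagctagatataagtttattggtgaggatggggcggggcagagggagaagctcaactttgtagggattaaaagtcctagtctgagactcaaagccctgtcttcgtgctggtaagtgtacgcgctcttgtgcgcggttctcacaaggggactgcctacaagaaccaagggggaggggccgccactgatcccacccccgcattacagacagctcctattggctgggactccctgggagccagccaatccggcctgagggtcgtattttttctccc
Ndufs4: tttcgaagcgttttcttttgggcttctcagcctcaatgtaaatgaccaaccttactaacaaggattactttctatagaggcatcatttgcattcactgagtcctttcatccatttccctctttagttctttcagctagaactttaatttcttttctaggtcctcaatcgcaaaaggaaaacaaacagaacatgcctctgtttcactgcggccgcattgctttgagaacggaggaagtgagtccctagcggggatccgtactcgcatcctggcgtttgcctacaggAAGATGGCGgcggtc
Sdhb has the ETS letters from base 7 after the start, and Uqcrh has them on the opposite strand from base -10. Cycs has the NRF1 letters on the opposite strand from base -61, Ndufs4 has the YY1 letters from base 36, and Cox6b2 has none of the 3 strings.

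The libraries kept 359 Cys, 318 Bud, 351 het, 371 fetal and 302 WT wells with at least 1000 UMIs each, and held 4035219 (WT) to 5865507 (fetal) UMIs. Where a well owes over 2% of its UMIs to Kcnq1ot1, this is often read as a sign of a damaged cell. Such wells made up 6.13% of Cys, 13.5% of Bud, 17.1% of het, 0.539% of fetal and 7.28% of WT wells. Stk11 had 9.03 CPM in Cys, 11.7 in Bud, 14.1 in het, 16.0 in fetal and 20.6 in WT; since a 3' tag can be read from an edited gene, these levels are no check of the genotypes. A pair of Cys wells held over 100000 UMIs each. The 5 plates use the same set of well barcodes, so shared barcodes cannot show shared cells. Epithelial markers summed to 5129 (WT) to 6517 CPM (Cys), whereas immune, mesenchymal and endothelial markers summed to at most 2.22 CPM each. The libraries differed in their epithelial cells: 5 stem cell markers summed to 52.8 CPM in Cys, 991.1 in Bud, 889.8 in het, 146.4 in fetal and 936.3 in WT. Enterocyte markers (12 genes) summed to 17.1, 1091, 6384, 1.19 and 3353 CPM in the same order, with 7 of 12 at 0 in fetal and 2 of 12 in Cys. Proliferation markers summed to 1635, 2051, 1868, 1127 and 2332 CPM.

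The 89 genes took the largest share of UMIs in the WT library and the smallest in the fetal one. They held 2.24% of UMIs in Cys (2.23 to 2.25), 3.03% in Bud (3.01 to 3.04), 2.76% in het (2.74 to 2.77), 1.85% in fetal (1.84 to 1.86) and 3.13% in WT (3.11 to 3.15). Both the Cys and fetal levels lay below those of Bud, het and WT in 62 of the 89 genes. Fetal was the lowest library for 63 genes and Cys for 16, while Bud was the highest for 34 and WT for 31. A share of UMIs cannot tell fewer transcripts of these genes from more of all others.

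The same order was seen well by well. The median well gave 2.24% of its UMIs to the 89 genes in Cys (quartiles 1.92 and 2.46), 2.92% in Bud (2.35 and 3.28), 2.54% in het (1.82 and 3.08), 1.84% in fetal (1.62 and 2.05) and 3.06% in WT (2.55 and 3.40). The upper quartiles of fetal and Cys lay below the lower quartile of WT, and before thinning the fetal quartiles lay closest together. After thinning each well to 3000 UMIs, the medians were 2.27%, 2.98%, 2.72%, 1.83% and 3.10% in the same order, with 43 Cys, 56 Bud, 69 het, 2 fetal and 51 WT wells too shallow to use. At that depth the quartiles were 1.60% and 2.10% in fetal and 1.967% and 2.475% in Cys, so their spreads were near alike. A well then showed a median of 37 of the genes in Cys, 45 in Bud, 43 in het, 34 in fetal and 45 in WT.

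**Figure D1:**
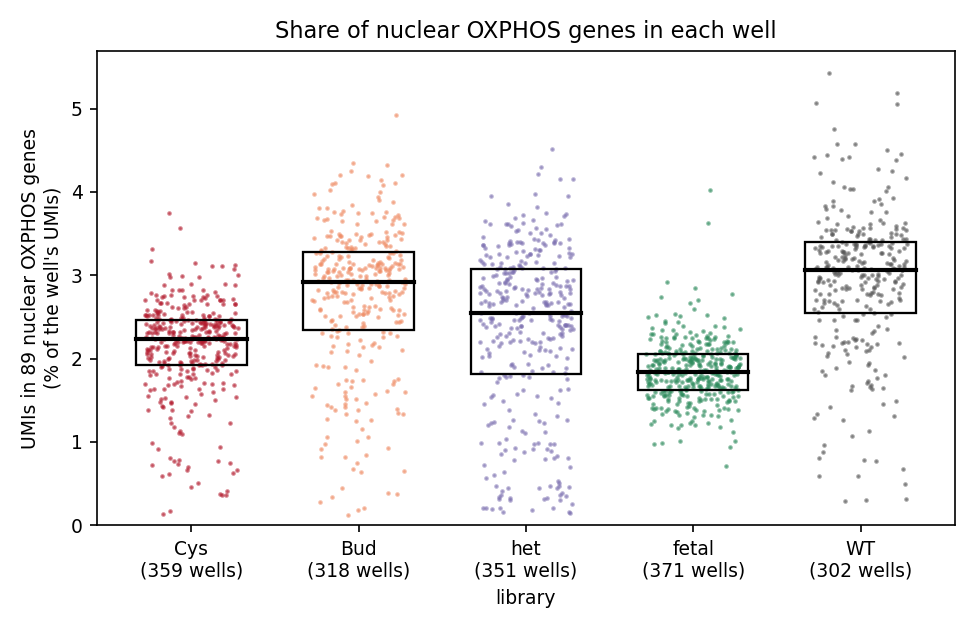
Share of each kept well's UMIs (percent, y axis) that fell in the 89 nuclear oxidative phosphorylation (OXPHOS) genes, by library; each point is a well, the box spans the quartiles and the thick line is the median. The fetal wells gather around 1.84% and the Cys wells around 2.24%, below the WT median of 3.06%, and Cys, Bud, het and WT have tails of wells near 0.

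Wells rich in Kcnq1ot1 had low shares in 4 of the libraries. Their summed share was 0.904% in Cys (22 wells), 2.25% in Bud (43), 0.904% in het (60) and 1.94% in WT (22), against 2.26%, 3.07%, 2.83% and 3.15% in the other wells of the same libraries. The fetal library had only 2 such wells, with 2.18% against 1.85%. Across the wells of a library, the share of the 89 genes ran with that of the mitochondrial ribosomal proteins (Spearman's rho 0.54 in fetal and WT to 0.68 in Bud), values that share the depth of a well. The same measure with the share of cytosolic ribosomal proteins was 0.61 in Cys, 0.45 in Bud, 0.48 in het, 0.60 in fetal and 0.23 in WT. With the log10 UMIs of a well it was 0.25 in Cys, 0.46 in Bud, 0.58 in het, 0.04 in fetal and 0.32 in WT. The share also differed within some libraries between wells sorted by markers of cell makeup, though the sets compared differed in depth. Each library's wells were sorted by a marker list and split into 3 sets of near equal size. In the set richest in proliferation markers the 89 genes held 2.30% in Cys, 3.05% in Bud, 2.77% in het, 1.93% in fetal and 3.12% in WT. In the poorest set they held 2.07%, 2.85%, 2.74%, 1.71% and 3.10%. The richest set was also the deeper in every library, with median UMIs of 17966 against 6160 in Bud and 19464 against 6428 in WT. The set richest in enterocyte markers had more than the poorest in Bud (3.28% against 2.62%), het (3.07% against 2.45%) and WT (3.37% against 2.93%). Median UMIs of these sets were 13311 against 6232 in Bud, 12647 against 8864 in het and 9184 against 9778 in WT. In Cys (2.21% against 2.27%) and fetal (1.84% against 1.82%) the median enterocyte share was 0 in both sets.

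**Figure D2:**
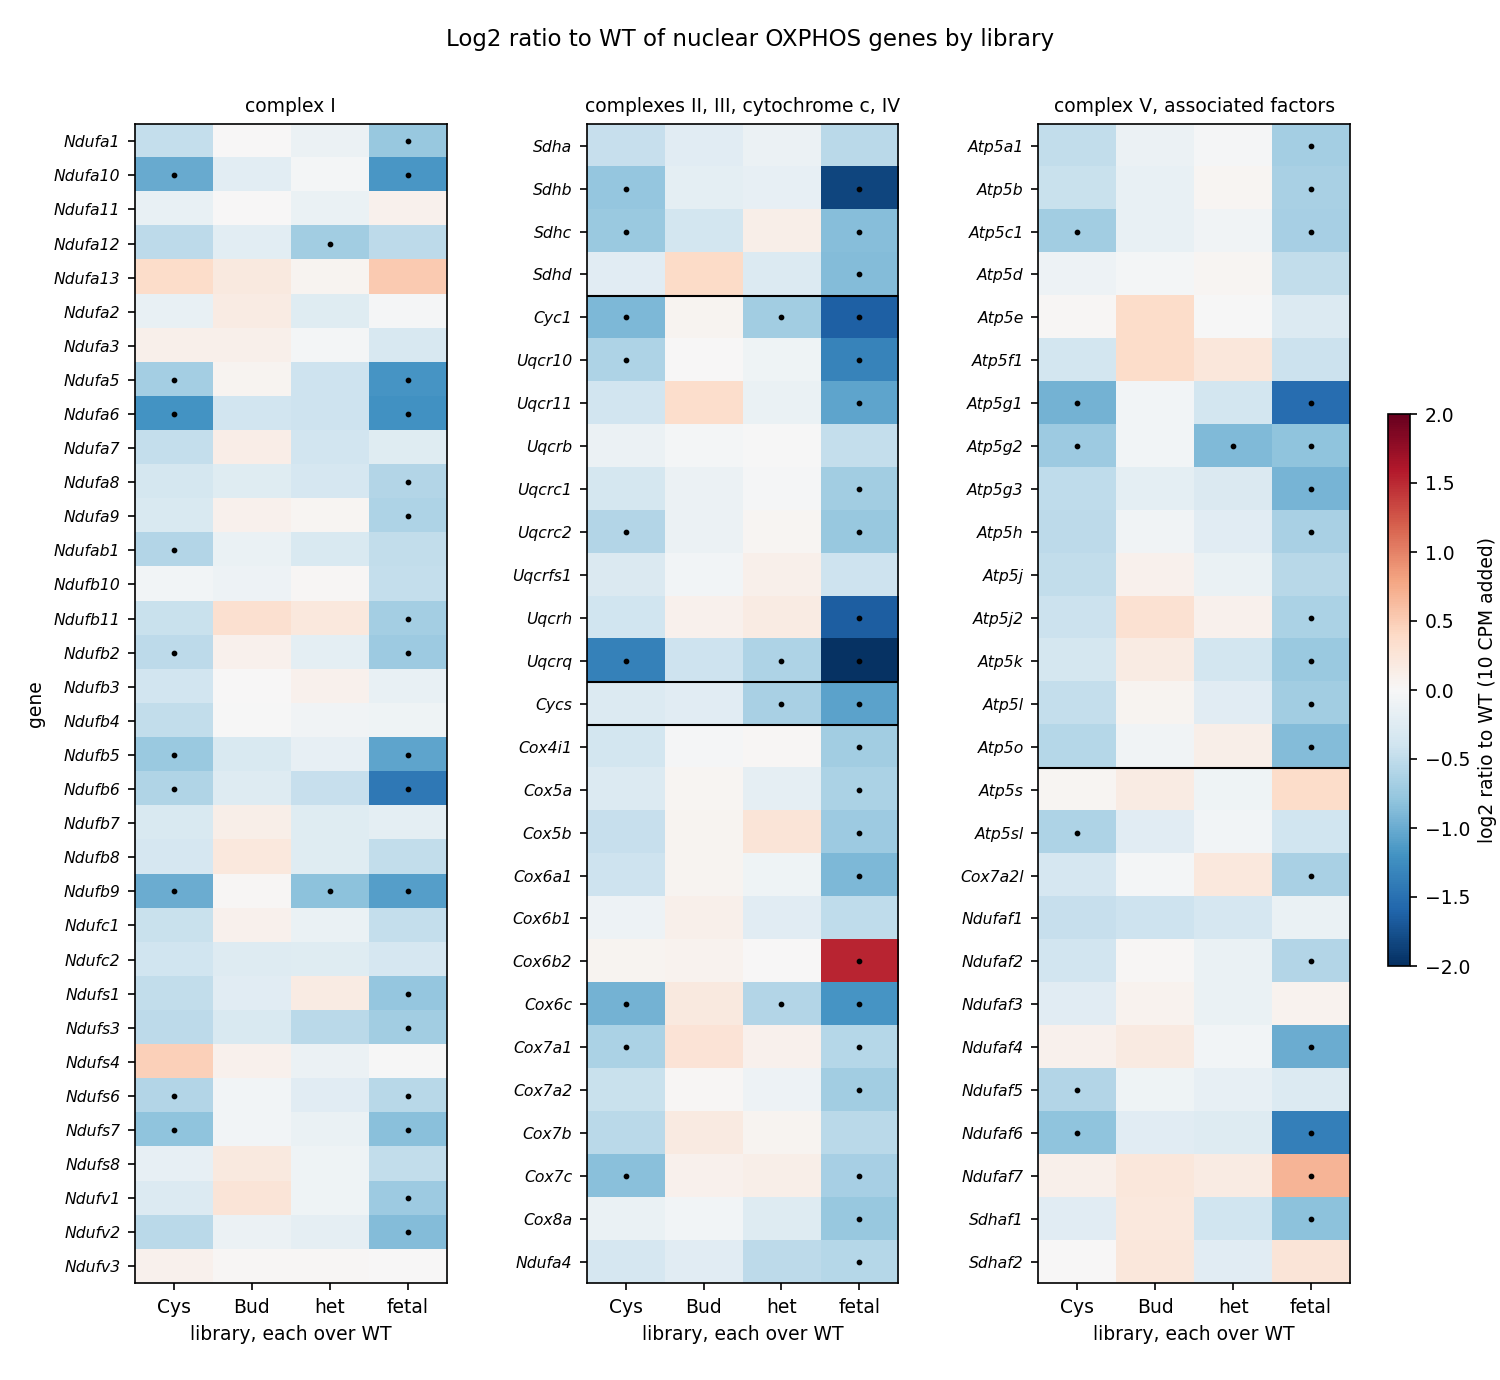
Log2 ratio to WT (colour, 10 CPM added to both levels) of 88 of the 89 genes in Cys, Bud, het and fetal, grouped by complex; a black dot marks a gene called lower or higher. Dots are most frequent in the fetal column (56) and the Cys column (25), and the Bud column has 0.

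Fetal organoids differed most from WT. Of the 89 genes 54 were called lower and 2 higher, where 22.4% of all 12675 genes were lower and 28% higher. The median log2 ratio was -0.65, against 0.04 for all genes, and the summed ratio was 0.591 (0.586 to 0.595). Complex III had the lowest ratio of the multi-subunit complexes at 0.447 (0.436 to 0.459), with 7 of 9 genes lower. Complex II followed at 0.538 (3 of 4 genes), complex IV at 0.592 (10 of 13), complex V at 0.595 (11 of 15) and complex I at 0.655 (17 of 35). The intervals of complex III and complex I, which cover counting error only, do not overlap. The sum of each complex includes genes on chromosome 4 or 15, among them Sdhb of complex II, and Uqcrh and Cyc1 of complex III. Other genes of these chromosomes were also low in fetal, with median log2 ratios of -0.74 and -0.34. Uqcrq, with the lowest ratio in complex III, lies on chromosome 11, whose other genes had a median of 0.02. The order of the complexes without chromosomes 4 and 15, or without single genes, was not tested.

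**Figure D3:**
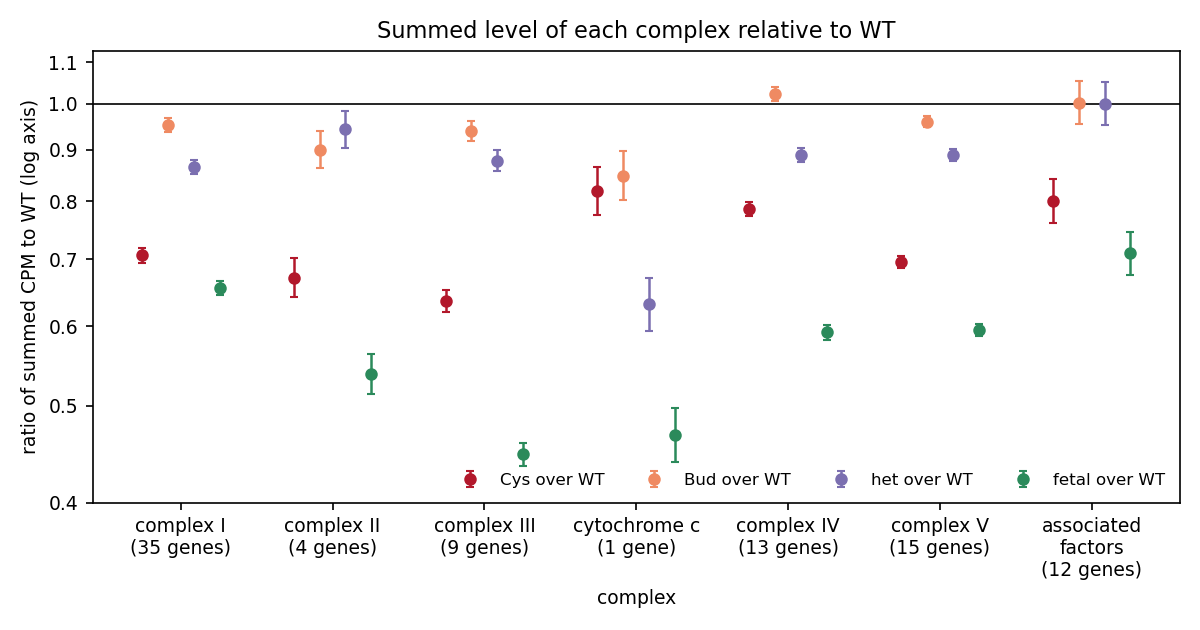
Ratio of each complex's summed CPM to WT (log y axis) for Cys, Bud, het and fetal, with 95% counting intervals as bars; the horizontal line marks equal levels. Fetal is lowest for every complex, complex III most of the complexes at 0.447, while the Bud points lie between 0.848 (cytochrome c) and 1.02 (complex IV).

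Within complex III the genes differed in how far they were lower. Uqcrq, a small accessory subunit, had 313 CPM in Cys, 609.9 in Bud, 528 in het, 200.5 in fetal and 816 in WT. Cyc1 (cytochrome c1, the subunit that gives electrons to cytochrome c) had 250.1 CPM in Cys, 490.8 in Bud, 288 in het, 146 in fetal and 474 in WT. Uqcrh, the hinge protein that helps this transfer, had 254 CPM in Cys, 357 in Bud, 378 in het, 100.4 in fetal and 338 in WT. All 3 were lowest in fetal, and Uqcrq and Cyc1 were also low in Cys. The fetal level was 4.07-fold below WT for Uqcrq (3.81 to 4.35), 3.36-fold for Uqcrh (3.05 to 3.71) and 3.24-fold for Cyc1 (2.99 to 3.51). By contrast Uqcrfs1, the Rieske iron-sulfur subunit, had 282 CPM in fetal and 379 in WT, and Uqcrb had 195 and 275; neither was called.

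Sdhb, the iron-sulfur subunit of complex II, had 111 CPM in Cys (101.8 to 120.5), 171 in Bud, 175 in het, 48.1 in fetal (42.6 to 54.0) and 197 in WT (184 to 212). Its fetal level was 4.10-fold below WT (3.58 to 4.72). Sdha, the flavoprotein that oxidises succinate, had 307 CPM in Cys, 363 in Bud, 396 in het, 291 in fetal and 428 in WT and was called in none of the 5 comparisons. Of the membrane anchors, Sdhc had 149 CPM in fetal and 277 in WT, and Sdhd 78.1 and 151; both were called lower. Cycs, the mobile carrier cytochrome c, had 524 CPM in Cys, 543 in Bud, 404 in het, 299 in fetal and 640.1 in WT. It was called lower in fetal (ratio 0.467) and in het (ratio 0.632), while Cys and Bud lay within 1.5-fold of WT.

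**Figure D4:**
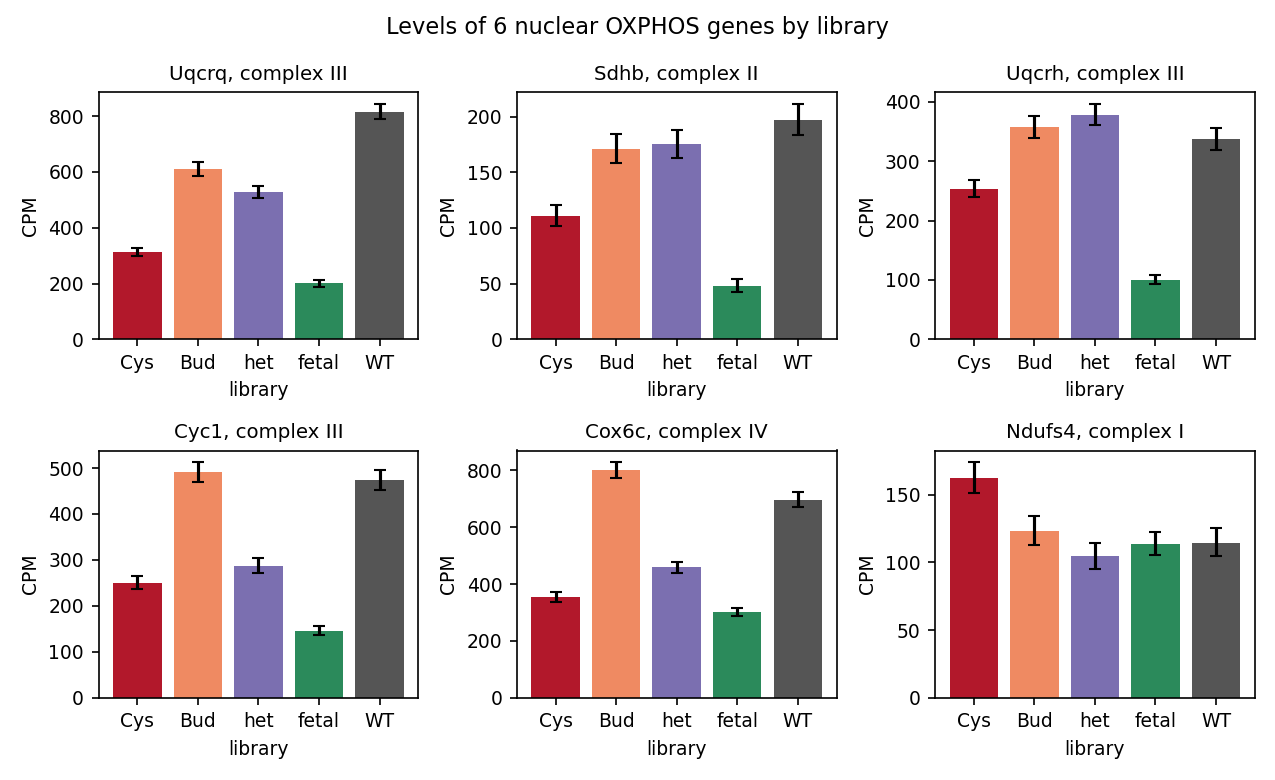
Levels (CPM, y axis) of 6 genes in the Cys, Bud, het, fetal and WT libraries, with 95% Poisson intervals as bars. Uqcrq, Sdhb, Uqcrh, Cyc1 and Cox6c are lowest in fetal, while Ndufs4 is highest in Cys at 162 CPM.

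Both genes called higher in fetal were low in every library. Cox6b2, the testis form of a complex IV subunit, had 109 UMIs in fetal (18.6 CPM, seen in 19.1% of wells), 2 UMIs each in Cys and Bud, and 0 in het and WT. It passed the minimum of 20 UMIs only through the fetal library, so its call rests on that choice, and it is given as a description. Its fetal level was 25-fold that of a set floor of 3 UMIs in WT, which is not a lower bound. The lower limit of the exact 95% interval of the ratio was 19.99. Its widespread counterpart Cox6b1 had 420.6 CPM in fetal and 602 in WT. Ndufaf7, a methyltransferase that helps complex I assemble, had 43.6 CPM in fetal and 23.5 in WT (ratio 1.85, 1.46 to 2.37). Ndufa13, an accessory subunit of complex I, had 136 CPM in Cys, 119 in Bud, 107 in het, 151 in fetal and 103 in WT. It was the next largest fetal ratio (1.47) and was not called.

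Cys organoids were lower than Bud, although both had the genotype Lkb1 -/-. Of the 89 genes 25 were called lower and 0 higher, where 18.7% of all genes were lower and 17.9% higher. The ratio was under 1 for 85 of the 89, the median log2 ratio was -0.43 (-0.03 over all genes), and the summed ratio was 0.741 (0.735 to 0.747). The ratio was 0.741 for complex I (8 of 35 genes lower), 0.745 for complex II (2 of 4), 0.676 for complex III (4 of 9), 0.767 for complex IV (4 of 13) and 0.724 for complex V (5 of 15). Cytochrome c itself had a ratio of 0.966 (0.913 to 1.02).

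The lowest Cys to Bud log2 ratios, with 10 CPM added, were those of Cox6c, Ndufb9, Cyc1 and Uqcrq. Cox6c, a small subunit of complex IV, had 355 CPM in Cys, 801 in Bud, 459 in het, 301 in fetal and 696 in WT. Ndufb9, an accessory subunit of complex I, had 136 CPM in Cys, 288 in Bud, 156 in het, 126 in fetal and 282 in WT. Cys was 2.26-fold below Bud for Cox6c (2.13 to 2.39), 2.12-fold for Ndufb9 (1.93 to 2.33), 1.96-fold for Cyc1 and 1.95-fold for Uqcrq. Cox7c, a less abundant subunit of complex IV chosen after its values were seen, had 57.8 CPM in Cys and 118 in Bud, 2.05-fold lower in Cys. At the other end stood Ndufs4, an accessory subunit of complex I whose loss causes Leigh syndrome in humans. It had 162 CPM in Cys (151 to 174), 123 in Bud, 104 in het, 114 in fetal and 114.5 in WT, with a Cys to Bud ratio of 1.32 (1.18 to 1.48). Its Cys interval lay above those of the other 4 libraries, and it was not called. Ndufa13, Ndufv3 and Ndufb10 had ratios of 1.14, 1.06 and 1.04.

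Against WT, 26 genes were called lower in Cys and 0 higher, where 21% of all genes were lower and 16.5% higher. This comparison shares the Cys library with the one before. The summed ratio was 0.716 (0.711 to 0.722), and the median log2 ratio -0.45 (-0.05 over all genes). Complex III had a ratio of 0.636, complex II 0.671, complex V 0.696, complex I 0.706 and complex IV 0.785. Uqcrq was 2.61-fold lower (2.45 to 2.77). The accessory subunits of complex I Ndufa6 (314 CPM in Cys and 734 in WT) and Ndufa10 (72.9 and 157) were 2.34-fold and 2.16-fold lower. Among genes with at least 2000 UMIs, where counting error is small, 27.4% of these genes were lower in Cys and 16.7% of all genes, and 64.4% and 24% were lower in fetal against WT. With het in place of WT, 22 genes were lower (20.3% of all genes) and 1 higher (17.8%) in Cys, the higher one being Ndufs4.

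Bud differed little from WT. Of the 89 genes 0 were lower and 0 higher, where 7.9% of all genes were lower and 5.34% higher. By the fold alone, without regard to the interval, 1 gene was higher (11.2% of all genes), Cox6b2 with 2 UMIs in Bud and 0 in WT, and 0 were lower (13.7%). The median log2 ratio was 0.01 and the summed ratio 0.967 (0.960 to 0.975), so the interval leaves out 1 while the difference is small. Among genes with at least 20 CPM in either library, the lowest ratios were those of Ndufaf1 (0.695), Uqcrq (0.747), Ndufa6 (0.758) and Sdhc (0.769). The highest were those of Sdhd (1.33), Atp5e (1.30), the peripheral stalk subunit Atp5f1 (1.30) and Uqcr11 (1.29). With het in place of WT, 6 genes were higher in Bud (8.33% of all genes) and 0 lower (10.7%), 4 of the 6 on chromosome 15.

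The het library lay closer to WT than Cys or fetal did. Of the 89 genes 7 were called lower and 0 higher, where 8.17% of all genes were lower and 7.72% higher, so the share of these genes (7.87%) was near the background. The summed ratio was 0.882 (0.875 to 0.889) and the median log2 ratio -0.13 (-0.01 over all genes). The 7 genes were Atp5g2, Ndufb9, Cyc1, Cox6c, Ndufa12, Cycs and Uqcrq. Atp5g2, which encodes the ring subunit c of ATP synthase, had 796 CPM in Cys, 1281 in Bud, 714 in het, 752 in fetal and 1328 in WT. Het was 1.86-fold below WT (1.78 to 1.94). The 3 genes for subunit c give the same mature protein and did not move alike. Atp5g1 had 480 CPM in het and 617 in WT, Atp5g3 1115 and 1363, and neither was called.

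Of the 7 genes called in het, 4 lie on 1 chromosome. Atp5g2, Ndufb9, Cyc1 and Cox6c all lie on chromosome 15, where 4 of 5 genes of the group were lower, and the fifth, Ndufa6, had a ratio of 0.743. On that chromosome the 293 other genes with at least 500 UMIs had a median log2 ratio of -0.43 in het against WT. The share of them called is not given. In the same comparison 411 other genes of chromosome 1 had a median of 0.28, and the 6 genes of the group there had a median log2 ratio of 0.14, with Ndufa10 lowest at -0.04. Without chromosomes 1 and 15, 3 of 78 genes were lower in het, where 7.23% of all genes off these chromosomes were lower.

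Similar shifts of whole chromosomes ran through the other comparisons. Other genes of chromosome 15 had medians of -0.44 in Cys against Bud, -0.45 in Cys against WT and -0.34 in fetal against WT, and of -0.01 in Bud against WT. On chromosome 12, 256 other genes had medians of 0.40 in Cys against WT and 0.28 in Bud against WT. The group has 1 gene there, Atp5s, with log2 ratios of 0.04 and 0.16, and it was not called. All 5 genes of the group on chromosome 15 were lower in Cys against Bud, Cys against WT and fetal against WT, and 0 of them in Bud against WT. Shares of other genes called on single chromosomes are not given, so only their medians stand beside such counts. The median well gave 4.19% of its UMIs to chromosome 15 in Cys, 6.05% in Bud, 4.33% in het, 4.54% in fetal and 5.93% in WT (wells with at least 3000 UMIs). In fetal, other genes of chromosome 4 had a median log2 ratio of -0.74 to WT, a ratio of 0.534. The median well gave 2.97% of its UMIs to chromosome 4 in fetal, against 5.2% in Cys, 5.84% in Bud, 5.83% in het and 5.92% in WT. All 5 genes of the group on chromosome 4 were lower in fetal: Sdhb, Uqcrh, the complex I subunit Ndufb6 and the assembly factors Ndufaf4 and Ndufaf6. Their median log2 ratio was -1.43, beyond that of the other genes, with Sdhb lowest at -1.84. For chromosome 1 the wells of het were spread widely, with quartiles of 5.18% and 7.49%, against 4.84% and 5.26% in WT.

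**Figure D5:**
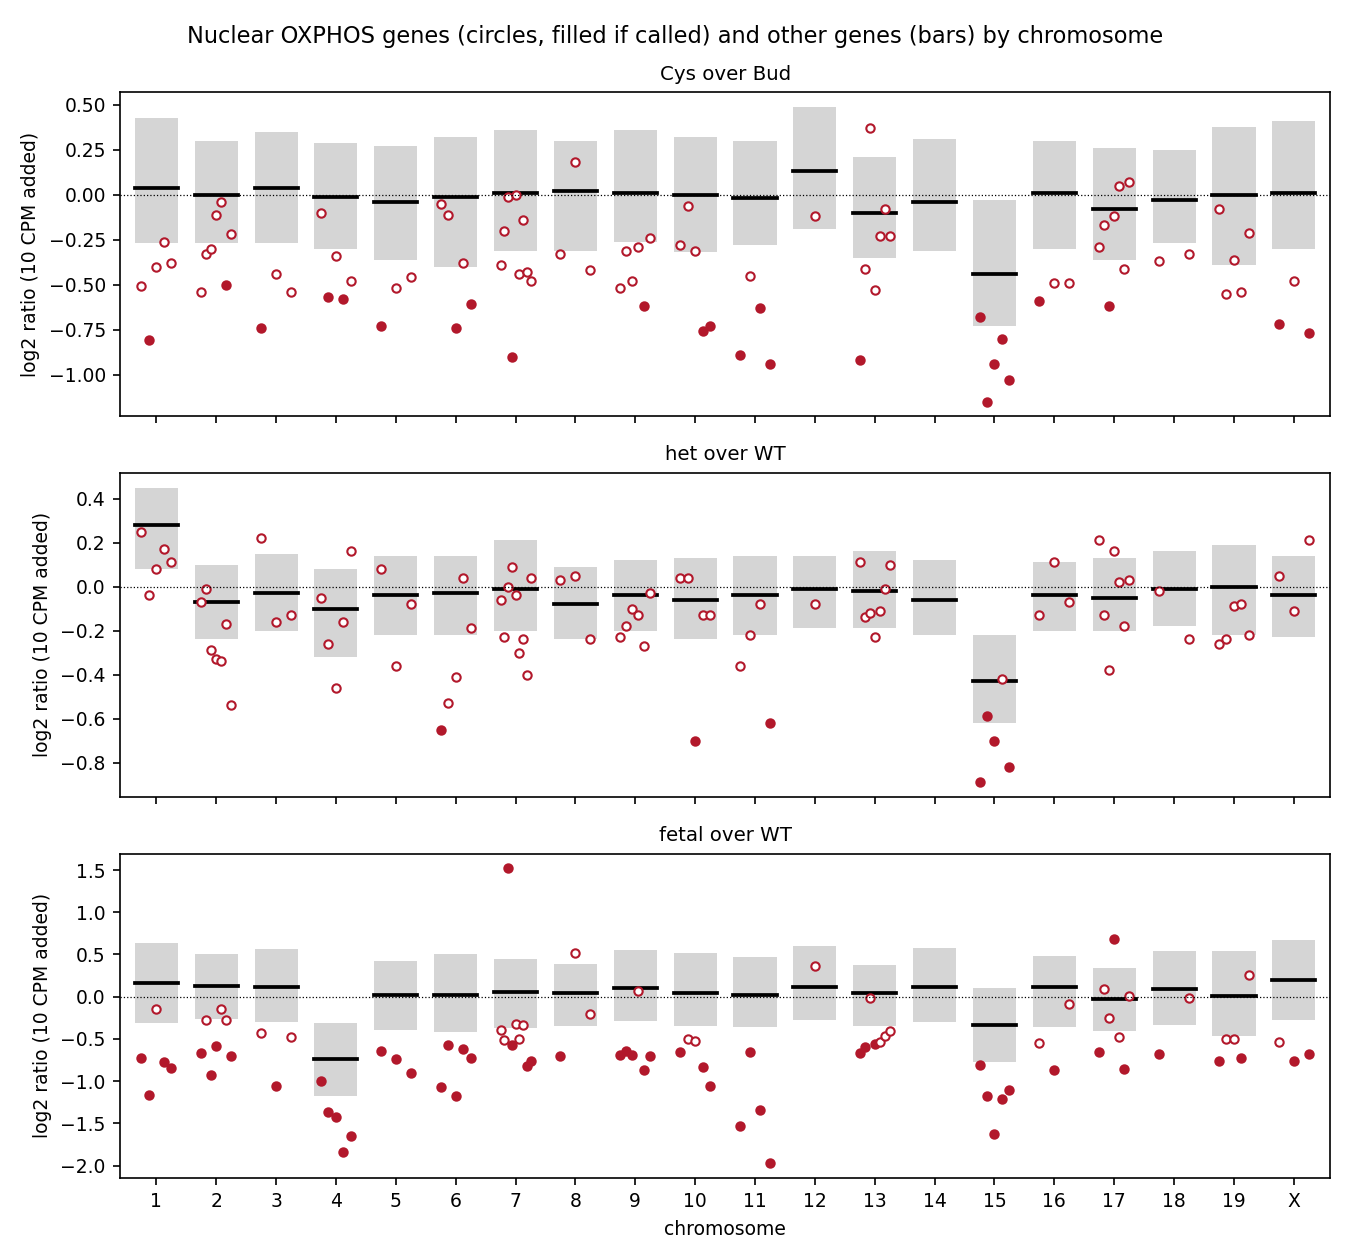
Log2 ratio (y axis, 10 CPM added) of 88 genes of the group (circles, filled where called) by chromosome (x axis) in Cys over Bud, het over WT and fetal over WT; grey bars span the quartiles of all other genes with at least 500 UMIs and black lines are their medians. Chromosome 15 is low in all 3 panels (medians -0.44, -0.43 and -0.34), chromosome 4 in fetal (-0.74) and chromosome 1 high in het (0.28). Medians of the group's genes were lower, at -0.94, -0.70 and -1.18 on chromosome 15 and -1.43 on chromosome 4. For all 6 genes of the group on chromosome 1 in het the median was 0.14.

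The counts were repeated away from these chromosomes. A chromosome was set aside where the median of its other genes was at least 0.25 in log2 from that over all chromosomes, a limit chosen after seeing the data. Without chromosomes 4 and 15, 44 of 79 genes were lower in fetal than in WT, where 19.5% of all genes off these chromosomes were lower, and the summed ratio was 0.617. Without chromosome 15, 20 of 84 were lower in Cys than in Bud (17.8% of all genes, ratio 0.766). Without chromosomes 12 and 15, 21 of 83 were lower in Cys than in WT (20.6% of all genes, ratio 0.740). Uqcrq on chromosome 11, Atp5g1 on chromosome 11 and Ndufa10 on chromosome 1 were among them in all 3. Dividing each ratio by the median of its chromosome gave 59 lower genes in fetal (21.7% of all genes), 21 in Cys against Bud (17.5%), 16 in Cys against WT (18.3%) and 2 in het (6.08%). The count in Cys against WT was then near the background, and the counts in Cys against Bud were not far above it. A difference in chromosome number between the lines and regulation of these genes cannot be told apart from counts of RNA.

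Subunits with tissue forms were read almost wholly from the widespread form. Cox4i1 had 387 (fetal) to 646 CPM (het), while Cox4i2 had 1 UMI over all libraries. Cox6a1 had 609.8 (fetal) to 1186 CPM (Bud), and Cox6a2, its heart and muscle form, 11 UMIs. Ndufa4, now counted with complex IV, had 248 (fetal) to 374 CPM (WT), and Ndufa4l2 had 1 UMI. Cox7a1, the heart and muscle form of subunit 7a, had 8 UMIs in Cys, 49 in Bud, 40 in het, 12 in fetal and 32 in WT. It was called lower in Cys (against Bud and WT) and in fetal, as a low gene of 1.61 CPM in Cys, 11.7 in Bud, 2.05 in fetal and 7.93 in WT. Cox7a2, the widespread form, had 152, 216, 197, 127 and 211 CPM in the order Cys, Bud, het, fetal, WT. The supercomplex factor Cox7a2l had 289.9 CPM in Cys, 357 in Bud, 424 in het, 230.3 in fetal and 366 in WT. Named processed copies exist for 9 of the 89 genes in the annotation, among them Cycs, Uqcrh and Cox7c, so their levels are less certain.

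Other lists of mitochondrial genes also held lower genes in fetal and Cys, in Cys partly at shares near those of all genes. Of 18 genes of the TCA cycle, which feeds electrons to complexes I and II, 11 were lower and 0 higher in fetal against WT. In Cys 8 were lower against WT and 6 against Bud. Of all genes, 22.4% were lower in fetal against WT, 21% in Cys against WT and 18.7% in Cys against Bud. Mdh2 (malate dehydrogenase) had 316 CPM in Cys, 683 in Bud, 776 in het, 241 in fetal and 593 in WT. Of 76 mitochondrial ribosomal proteins, 32 were lower and 1 higher in fetal, 11 were lower and 0 higher in Cys against WT, and 14 were lower in Cys against Bud. The share in Cys against WT was below the 21% of all genes, and that in Cys against Bud near the 18.7%. Of 38 measured factors for the assembly and stability of the complexes outside the name rule, 15 were lower and 1 higher in fetal. In Cys 12 were lower and 2 higher against WT. Against Bud 9 were lower and 2 higher, a lower share nearer that of all genes. Of 16 measured genes of glycolysis, 6 were higher and 1 lower in fetal, where 28% of all genes were higher. Hk1, a hexokinase that docks on mitochondria, had 90.3 CPM in Cys, 32.4 in Bud, 17.3 in het, 168.6 in fetal and 28.5 in WT. Cytosolic ribosomal proteins were lower in 22 of 79 in Cys against Bud and in 12 of 79 in fetal against WT (where 18.7% and 22.4% of all genes were lower). Their median log2 ratios were -0.42 and -0.34, the first near the -0.43 of the 89 genes in Cys against Bud. Cytosolic ribosomal proteins summed to 134939 CPM in Cys, 180878 in Bud, 120969 in fetal and 160415 in WT. In Cys against WT 3 of 79 were lower, below the 21% of all genes, with a median log2 ratio of -0.24. Their share of lower genes was thus above that of all genes only in Cys against Bud. Their summed level was lower in each of these comparisons.

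Of 19 measured regulators of mitochondrial content, 8 were lower and 2 higher in Cys against WT, and 7 lower and 1 higher in Cys against Bud. In fetal against WT 10 were lower and 2 higher. Of all genes, 21%, 18.7% and 22.4% were lower and 16.5%, 17.9% and 28% higher in the same order. The regulators' median log2 ratios were -0.09, -0.23 and -0.44, against -0.05, -0.03 and 0.04 over all genes. In Cys against WT the regulators' median was thus near that of all genes, while their share of lower genes was above it. Tfam, which packages and transcribes mitochondrial DNA, had 102 CPM in Cys (93.7 to 112), 166 in Bud, 156 in het, 88.1 in fetal (80.7 to 96.1) and 172 in WT (159 to 185). Ppargc1b, a coactivator of these genes, had 17.5 CPM in Cys, 29.5 in Bud, 37.5 in het, 2.73 in fetal and 38.7 in WT. Its relative Ppargc1a had 1 UMI in Cys, 32 in Bud, 41 in het, 35 in fetal and 46 in WT. All 3 were below WT in both Cys and fetal. Esrra, another gene of the list, had 70.1 CPM in Cys, 63.6 in Bud, 114 in het, 43.1 in fetal and 75.3 in WT. Gabpa, a subunit of GABP, had 31.3 CPM in Cys, 41.0 in Bud, 28.2 in het, 48.4 in fetal and 31.2 in WT. Ppard, a receptor for fatty acids, had 104 CPM in Cys, against 49.8 in Bud and 42.1 in WT. Ppara, a receptor for fatty acids on chromosome 15, had 0.201 CPM in Cys, 22.4 in Bud, 56.4 in het, 0.171 in fetal and 55.5 in WT. Nrf1 itself differed little, with 26.5 CPM in Cys, 29.1 in Bud, 26.6 in het, 26.1 in fetal and 27.0 in WT. Slc25a4 is a carrier that exchanges ADP for ATP. It had 107 CPM in Cys, 3.81 in Bud, 38.5 in het, 305 in fetal and 54.5 in WT. Of 19 genes for mitochondrial transport and pores, Slc25a4 among them, 11 were lower and 1 higher in fetal against WT. In Cys against WT 5 were lower and 2 higher. Of all genes, 22.4% were lower and 28% higher in fetal, and 21% and 16.5% in Cys. The list's median log2 ratios were -0.63 and -0.33, while Slc25a4 was called higher in both comparisons. The part of cell makeup, of the chromosome shifts and of these regulators in the levels of the 89 genes was not tested.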

How the data were processed

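Single organoid cells were profiled by SORT-seq with CEL-Seq2 libraries, which read the 3' end of transcripts with UMIs, per the labels' protocols. Tools in the submitters' processing notes are featureCounts 1.5.2, STAR 2.6.1 and Seurat 4.1.0, with the build GRCm38. The authors deposited UMI counts per gene and well, used here as the main values, and estimated counts of transcripts corrected for repeated codes, rounded and used as an alternative. Deposited read counts were not used. Spike-ins were left out, and wells with under 1000 UMIs were dropped; no well was clustered, and doublets were not looked for.

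UMIs were summed over the wells of each library and scaled to CPM. Levels have exact Poisson intervals, shares Clopper-Pearson intervals and ratios exact binomial intervals (scipy 1.17.1, 95%). They cover counting error only. The call rule was run on simulated counts with changes set above the 1.5-fold limit. Those counts held counting error only, so the run cannot speak to spread between wells, cultures or libraries. The genes and lists were chosen with earlier results of these data known. Genes were picked for naming by a rule. It took the 4 largest and 4 smallest ratios per comparison among genes with 20 CPM in either library. It also took the paralog sets, Sdha to Sdhd, Cycs and Cyc1, and the gene with most UMIs in each complex. Not all of these are named with values above. Left out are Cox8a and Atp5b, with most UMIs in complexes IV and V. Also left out are Ndufa3, Sdhaf2, Cox5b and Ndufb11, each among the largest ratios of a comparison. A few others were chosen after their values were seen. A UMI count does not show protein or respiration. Values of 1 gene of the group are not reported here.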

Additional observations from a re-analysis of the deposited data

How the results depend on the processing

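The summed ratio of Cys to Bud (0.741) was 0.779 with equal weight for every well, 0.727 with the deposited transcript table, 0.767 with median-of-ratios scaling and 0.768 without Rn45s in the totals. That of Cys to WT (0.716) was 0.726, 0.703, 0.764 and 0.740 under the same settings, and 0.813 with het in place of WT. That of Bud to WT (0.967) was 0.931 with equal weight and 0.996 with median-of-ratios scaling, and reversed to 1.097 with het in place of WT. That of het to WT (0.882) was 0.892 in wells with at least 3000 UMIs, 0.803 with equal weight, 0.8997 without Kcnq1ot1-rich wells and 0.929 with median-of-ratios scaling. That of fetal to WT (0.591) was 0.631 with equal weight and 0.604 with median-of-ratios scaling. With a fold limit 25% above 1, in place of 50%, the lower genes numbered 59 in Cys against Bud, 64 in Cys against WT, 4 in Bud and 18 in het, and with a fold of 2 they numbered 4 and 6 in Cys, 0 in het and 19 in fetal. Of all genes, 25.7%, 28.4%, 13.9% and 15.2% were lower in these comparisons at 25%, and 11.5%, 13%, 3.68% and 15.5% with a fold of 2. Higher genes at 25% numbered 1 in Cys against Bud, 2 in Cys against WT, 5 in Bud, 1 in het and 4 in fetal (23.5%, 21.6%, 8.89%, 12.6% and 34.1% of all genes), and with a fold of 2, 1 in fetal (20.1%). With equal weight, 13 genes were lower in het, 1 lower in Bud, and 1 higher in Cys against both Bud and WT. The median-of-ratios scaling, the fold alone and het in place of WT gave 1 higher gene each in Cys against WT, and Bud had 1 higher by the fold alone and 6 higher against het. Shares of all genes called with equal weight, with that scaling, or by the fold alone in Cys against WT are not given. The counts of those settings thus stand without a background. Scaling by chromosome, chosen after seeing the data, gave 16 lower and 1 higher in Cys against WT and 2 lower in het. The cause of these changes was not tested, except that a lower fold admits more genes and a higher one fewer. The remaining 108 counts stayed within 1.5 times and 19 summed ratios within their intervals. For single named genes 269 of the values stayed within their counting interval and 11 moved, and for complexes 181 stayed and 64 moved. Sums near 1 crossed it: complex IV in Bud against WT ran between 0.986 and 1.05, the associated factors in het against WT between 0.921 and 1.06, and cytochrome c in Cys against Bud between 0.947 and 1.04. No paired analysis was possible because each group has 1 library. With 1 library a group, no spread between cultures or animals can be given, and low genes such as Cox6b2 and Cox7a1 rest on few UMIs.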
